A study of Canis lupus familiaris with 12 samples.

Results

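Tight junctions seal the space between epithelial cells near their apical border. Their membrane proteins include the claudins, which set permeability, and non-claudin proteins such as occludin, tricellulin, MARVELD3 and JAM-A. On the cytoplasmic side, PDZ-domain scaffolds of the ZO and MAGI families and MUPP1 tie these membrane proteins to the actomyosin cytoskeleton and to each other. Cingulin (gene CGN) and paracingulin (gene CGNL1) are cytoplasmic junctional proteins that are recruited by ZO proteins.

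The mRNA levels of the scaffolds and the non-claudin membrane proteins were examined in MDCKII cells, a line of dog kidney epithelium, that kept or lacked cingulin and paracingulin. A fixed list of 9 genes was used: TJP1 (ZO-1), TJP3 (ZO-3), OCLN (occludin), MARVELD2 (tricellulin), MARVELD3, F11R (JAM-A), MAGI1, MAGI3 and MPDZ (MUPP1). Of these, 8 had values among the 13672 genes listed, and all 8 passed the filter on low values and were tested. MPDZ was not analysed here. The genes were chosen by name and not by their values, although earlier results of these data were known when the list was made.

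RNA was sequenced from WT, CGN-KO (clone 1G8), CGNL1-KO (clone 22) and CGN/CGNL1 double-KO (clone 21D3) cells, with 3 libraries per genotype and no treatment. The KO lines were made by CRISPR/Cas9 editing, and each KO genotype was represented here by 1 clonal line, so the loss of a gene and other properties of its clone cannot be told apart. Nothing in the labels says that the libraries of a genotype came from separate cultures, and the p-values measure the spread between these libraries, which may be technical. The column of 1 double-KO library carries no replicate number and is called unnumbered. Levels are the deposited CPM (read counts scaled to a common library size), which rest on 16837532 to 30086076 recovered reads per library. CPM were not divided by transcript length, and levels were therefore compared between genotypes and not between genes. In RNA from whole cultures, fewer cells that express a gene and less of its RNA per cell cannot be told apart.

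The targeted genes followed the labels. CGN was at 42.2 to 50.6 CPM on average in the lines labelled as lacking it and at 204 to 214 CPM in the others. CGNL1 was at 1.49 to 2.34 CPM in the lines labelled as lacking it, 9.74 CPM in WT and 5.99 CPM in CGN-KO cells, and it was called lower in CGN-KO than in WT cells (log2 change -0.61 ± 0.17, SE, limma adjusted p = 0.0201). All 5 epithelial markers were listed in every genotype. Their summed level was 5234 to 5429 CPM in WT and 5274 to 5454 CPM in CGNL1-KO libraries. It was lower, with no overlap with WT, in CGN-KO (4983 to 5077 CPM) and double-KO libraries (5093 to 5168 CPM). CDH16, a kidney cadherin, was scarce, at 0.828 to 5.14 CPM. Single markers stood apart from WT. EPCAM was at 555 to 612 CPM in WT and 689 to 791 CPM in all KO libraries. KRT18 was at 1562 to 1727 CPM in WT, 1214 to 1336 CPM in CGN-KO and 1407 to 1488 CPM in double-KO libraries. CDH1 was at 1005 to 1142 CPM in WT, higher in CGNL1-KO (1262 to 1348 CPM) and just lower in double-KO libraries (989 to 1004 CPM). CDH16 was at 0.828 to 1.94 CPM in WT and higher in CGN-KO (2.32 to 5.14 CPM) and double-KO libraries (2.18 to 2.79 CPM). Of 6 mesenchymal markers 2 were listed. VIM was at 2345 to 3539 CPM, and FN1 was at 409 to 457 CPM in WT and 528 to 955 CPM in the KO libraries, with no overlap. The summed mesenchymal level was 3448 to 3952 CPM in WT, 3264 to 4329 in CGN-KO, 2873 to 3704 in CGNL1-KO and 4122 to 4444 in double-KO libraries. Of 2 leukocyte and 3 endothelial markers, 1 each was listed, CD68 and KDR, and neither exceeded 2.41 CPM. KDR was at 1.12 to 1.77 CPM in WT and 1.92 to 2.41 CPM in CGNL1-KO libraries. It was at 0.758 to 0.938 CPM in CGN-KO and 0.0969 to 0.284 CPM in double-KO libraries, with no overlap between genotypes. These comparisons of markers use the ranges of 3 libraries per genotype, and the share of all genes with separated ranges was not counted. The part of FN1, EPCAM and the other markers in the results below was not tested.

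The differences were small. In a limma fit of all 12 libraries on log2(CPM + 1), differences with an adjusted p below 0.05 (Benjamini-Hochberg, over the 12650 genes tested) were called. OCLN was lower than in WT in all KO libraries, MAGI1 was lower in the libraries of both lines that lack CGNL1, and MARVELD3 was higher in the libraries of both single-KO lines and near the WT level in those of the double-KO line. F11R was higher in the single-KO libraries. These sentences compare the ranges of 3 libraries per genotype, and the share of all genes with such ranges was not counted. The changes of OCLN, MARVELD3 and F11R from WT in CGNL1-KO cells were not called. TJP1, TJP3, MARVELD2 and MAGI3 were not called in any comparison. The largest log2 change among the 8 genes in any comparison was -0.48. Among the 4 genotypes, limma's F test called 4 of the 8 genes (OCLN, MARVELD3, F11R and MAGI1), beside 29.9% of all genes tested. Without CGN-KO replicate 3 it called 2 of them, OCLN and MAGI1. The F test call of F11R was lost in 10 of the 12 fits with a library left out (all but those without WT replicate 1 or CGNL1-KO replicate 1) and with no filter on low values.

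**Figure D1:**
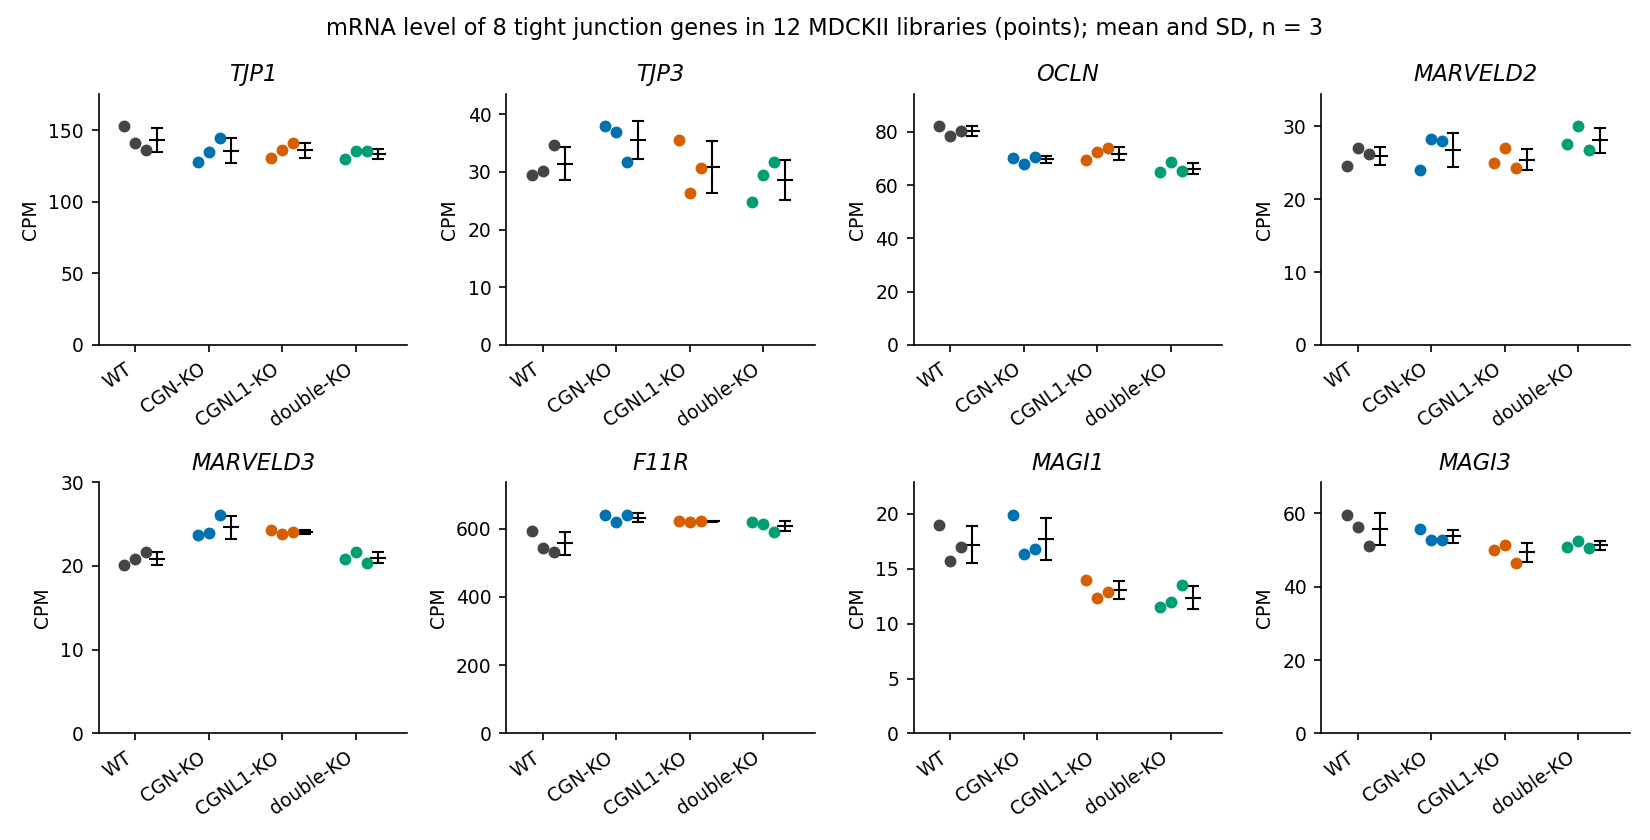
Levels (CPM, linear axes from 0) of the 8 genes in each of the 12 libraries, by genotype. Points are libraries, in order of replicate number with the unnumbered library first, and the bars beside them are the mean and SD (n = 3). The OCLN points of the KO lines lie between 64.8 and 73.9 CPM, all below those of WT, and the MAGI1 points of CGNL1-KO and double-KO cells lie at or below 13.9 CPM, all below those of the other genotypes.

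TJP1 encodes ZO-1, the scaffold that binds claudins, occludin and JAM-A and recruits cingulin. Its level was 153, 141 and 136 CPM in WT replicates 1, 2 and 3, and 128, 135 and 145 CPM in CGN-KO replicates 1, 2 and 3. It was 131, 136 and 141 CPM in CGNL1-KO replicates 1, 2 and 3, and 130, 136 and 136 CPM in the double-KO unnumbered library and replicates 2 and 3. Neighbouring genotypes in the order of the means overlapped, but the highest double-KO library (135.67 CPM) lay just below the lowest WT library (136.004 CPM). The log2 change from WT was -0.08 (95% confidence interval -0.20 to 0.05) in CGN-KO, -0.07 (-0.20 to 0.05) in CGNL1-KO and -0.10 (-0.22 to 0.03) in double-KO cells, with limma adjusted p from 0.238 to 0.526. These intervals leave room for a fall of about 0.22 on the log2 scale and for little rise.

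TJP3 encodes ZO-3, a ZO scaffold found in epithelia. It varied within each genotype, with 29.4 to 34.7 CPM in WT, 31.8 to 37.9 in CGN-KO, 26.4 to 35.5 in CGNL1-KO and 24.8 to 31.7 in double-KO libraries. The double-KO libraries had the lowest mean (28.6 ± 3.53 CPM, SD, n = 3) and the CGN-KO libraries the highest (35.6 ± 3.31 CPM), and these 2 ranges did not overlap. That difference was -0.31 ± 0.11 (SE) in log2 and was not called in the fit of all genotypes (limma adjusted p = 0.102). It was called when only these 2 genotypes were fitted (limma adjusted p = 0.0432) and when CGNL1-KO replicate 1, which belongs to neither group but to the shared estimate of the spread, was left out (0.0457). It was smaller without the unnumbered double-KO library (-0.21, limma adjusted p = 0.386). With replicate numbers as blocks, a fit that also leaves out this library, it was -0.17 (limma adjusted p = 0.397). Against WT the log2 changes were 0.17 (95% interval -0.06 to 0.40), -0.03 (-0.27 to 0.20) and -0.13 (-0.37 to 0.10) for CGN-KO, CGNL1-KO and double-KO cells.

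OCLN encodes occludin, a membrane protein with the 4-pass MARVEL fold that binds ZO-1. It was at 82.0, 78.5 and 80.1 CPM in WT replicates 1, 2 and 3, and at 70.2, 68.0 and 70.4 CPM in CGN-KO replicates 1, 2 and 3. The level was 69.3, 72.2 and 73.9 CPM in CGNL1-KO replicates 1, 2 and 3, and 64.8, 68.5 and 65.3 CPM in the double-KO unnumbered library and replicates 2 and 3. All KO libraries thus lay below all WT libraries, while the KO lines overlapped with their neighbours in order. The mean fell by 13.3% from WT in CGN-KO and by 17.5% in double-KO cells. In log2, the change was -0.20 ± 0.05 (SE) in CGN-KO (limma adjusted p = 0.0101) and -0.27 ± 0.05 in double-KO cells (limma adjusted p = 0.000850). In CGNL1-KO cells it was -0.16 ± 0.05 and was not called (limma adjusted p = 0.0611), although it was called when libraries were scaled to their totals only (limma adjusted p = 0.0221). These 3 contrasts share the WT libraries. The CGN-KO and double-KO calls were kept in every alternative run and without any single library (adjusted p at most 0.0448 for CGN-KO and 0.00619 for double-KO).

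MARVELD2 encodes tricellulin, the MARVEL protein of contacts between 3 cells, and was the gene next to OCLN among the tested genes in the RefSeq gene order. It was at 24.5 to 26.9 CPM in WT, 24.0 to 28.3 in CGN-KO, 24.2 to 26.99 in CGNL1-KO and 26.7 to 29.97 CPM in double-KO libraries. Neighbouring genotypes overlapped throughout. Its log2 change from WT in double-KO cells, 0.11 (95% interval -0.05 to 0.28, limma adjusted p = 0.318), was opposite in sign to that of OCLN in the same libraries.

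MARVELD3 encodes the third member of the MARVEL family at tight junctions. It was at 20.2, 20.8 and 21.6 CPM in WT replicates 1, 2 and 3, and at 23.7, 23.9 and 26.1 CPM in CGN-KO replicates 1, 2 and 3. The level was 24.3, 23.8 and 24.1 CPM in CGNL1-KO replicates 1, 2 and 3, and 20.9, 21.7 and 20.3 CPM in the double-KO unnumbered library and replicates 2 and 3. The libraries of both single-KO lines lay above those of WT and double-KO cells with no overlap, and WT and double-KO cells overlapped. The rise over WT was 0.23 ± 0.07 (SE) in log2 in CGN-KO cells (limma adjusted p = 0.0271). In CGNL1-KO cells the difference was 0.20 ± 0.07 (limma adjusted p = 0.0792, not called), and in double-KO cells it was 0.01 (95% interval -0.14 to 0.15). The CGN-KO call was lost when only WT and CGN-KO were fitted (limma adjusted p = 0.0648) and without WT replicate 1 (0.0812), WT replicate 2 (0.0779) or CGN-KO replicate 3 (0.117).

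F11R encodes JAM-A, an immunoglobulin-type adhesion protein that binds ZO-1. It was at 594, 542 and 533 CPM in WT replicates 1, 2 and 3, and at 639, 618 and 640 CPM in CGN-KO replicates 1, 2 and 3. The level was 623, 620 and 622 CPM in CGNL1-KO replicates 1, 2 and 3, and 618, 612 and 590 CPM in the double-KO unnumbered library and replicates 2 and 3. All single-KO libraries lay above all WT libraries, whereas the lowest double-KO library lay below WT replicate 1. The rise was 0.19 ± 0.05 (SE) in log2 in CGN-KO cells (limma adjusted p = 0.0206). The differences in CGNL1-KO (0.16 ± 0.05, limma adjusted p = 0.0660) and double-KO cells (0.13 ± 0.05, limma adjusted p = 0.0918) were not called. Without WT replicate 1, the highest WT library, the changes were also called in CGNL1-KO (0.21, limma adjusted p = 0.0251) and double-KO cells (0.17, limma adjusted p = 0.0319). The CGN-KO call was lost without WT replicate 2 (limma adjusted p = 0.0890), WT replicate 3 (0.0751) or CGN-KO replicate 3 (0.0693), and when only WT and CGN-KO were fitted (0.0608). DESeq2 on the recovered reads called the CGNL1-KO change (adjusted p = 0.0158), as did limma with replicate numbers as blocks (adjusted p = 0.0400).

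MAGI1 encodes a multi-PDZ scaffold of the membrane-associated guanylate kinase family at epithelial junctions. It was at 19.0, 15.7 and 17.0 CPM in WT replicates 1, 2 and 3, and at 19.9, 16.3 and 16.8 CPM in CGN-KO replicates 1, 2 and 3. The level was 13.9, 12.3 and 12.9 CPM in CGNL1-KO replicates 1, 2 and 3, and 11.5, 12.001 and 13.6 CPM in the double-KO unnumbered library and replicates 2 and 3. The libraries of both lines that lack CGNL1 lay below all others, while WT and CGN-KO overlapped, as did CGNL1-KO and double-KO cells. These levels rest on 211 to 604 reads per library. The mean fell by 24.2% from WT in CGNL1-KO and by 28.1% in double-KO cells. The log2 change was -0.37 ± 0.10 (SE, limma adjusted p = 0.0221) in CGNL1-KO and -0.45 ± 0.10 (limma adjusted p = 0.00304) in double-KO cells. In CGN-KO cells it was 0.04 (95% interval -0.17 to 0.24). The double-KO call was kept without any single library. The CGNL1-KO call was lost without WT replicate 1 (limma adjusted p = 0.0971), WT replicate 3 (0.0566), CGNL1-KO replicate 2 (0.0690) or CGNL1-KO replicate 3 (0.0706).

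MAGI3 encodes a related scaffold. It was at 51.0 to 59.6 CPM in WT, 52.7 to 55.9 in CGN-KO, 46.5 to 51.4 in CGNL1-KO and 50.5 to 52.6 CPM in double-KO libraries. The CGNL1-KO mean was the lowest (49.4 ± 2.51 CPM, SD, n = 3), with 2 libraries below the lowest WT value. The unnumbered double-KO library (50.8 CPM) and double-KO replicate 3 (50.5 CPM) also lay below that value. The log2 change from WT in CGNL1-KO cells was -0.17 (95% interval -0.31 to -0.03, limma adjusted p = 0.122, not called), and it was called without WT replicate 3 (-0.23, limma adjusted p = 0.0416). It was -0.05 (-0.18 to 0.09) in CGN-KO and -0.11 (-0.25 to 0.02) in double-KO cells.

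**Figure D2:**
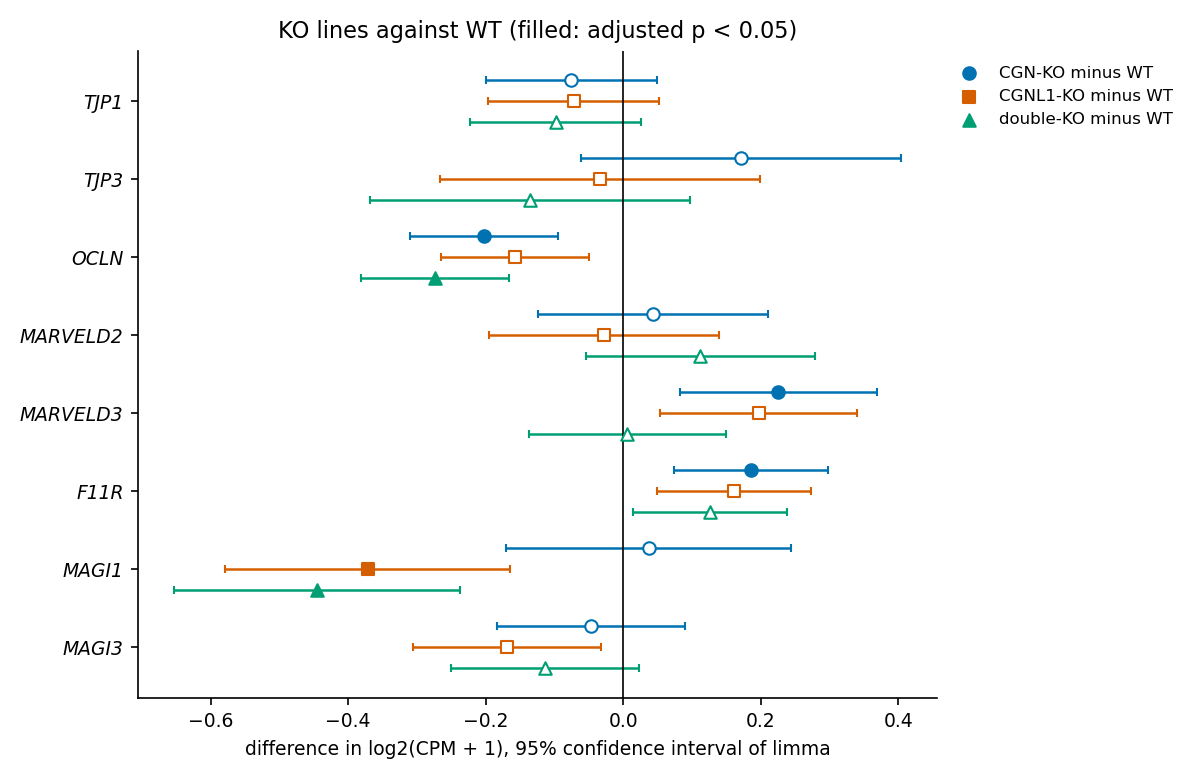
Difference of each KO line from WT in log2(CPM + 1) for the 8 genes, with limma's 95% confidence interval (3 libraries per genotype, 1 shared estimate of the spread). Filled symbols have an adjusted p below 0.05: OCLN, MARVELD3 and F11R in CGN-KO, MAGI1 in CGNL1-KO, and OCLN and MAGI1 in double-KO cells.

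Counted by comparison with WT, 3 of the 8 genes were called in CGN-KO cells, beside 19.0% of all genes tested. Of these, 2 were higher (11.2% of all genes were called higher) and 1 was lower (7.87%). The count was 1, the lower one of MAGI1, in CGNL1-KO cells, beside 10.3% of all genes (6.81% higher and 3.49% lower). It was 2, both lower, in double-KO cells, beside 26.3% of all genes (14.8% higher and 11.5% lower). These shares of 8 genes were not tested against the background. The median log2 change of the 8 genes was 0.04, -0.05 and -0.11 in CGN-KO, CGNL1-KO and double-KO cells, against -0.0039, -0.0031 and -0.00036 for all genes tested. The median size of the change, without its sign, was 0.12, 0.16 and 0.12 for the 8 genes and 0.12, 0.10 and 0.14 for all genes.

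Comparisons between the KO lines asked whether the lines differ from each other, since a call in one line and not in another does not show this. Between CGN-KO and CGNL1-KO cells 1 gene was called, beside 5.19% of all genes. It was MAGI1, which was higher in CGN-KO cells by 0.41 ± 0.10 (SE) in log2 (limma adjusted p = 0.0209). With replicate numbers as blocks, MAGI1 was again the gene called. The call was lost when only these 2 genotypes were fitted (limma adjusted p = 0.0720) and without CGN-KO replicate 1 (0.0962), CGNL1-KO replicate 2 (0.0734) or CGNL1-KO replicate 3 (0.0885). Differences between these lines in the other genes were not called. They were -0.04 (95% interval -0.15 to 0.06) for OCLN, 0.03 (-0.11 to 0.17) for MARVELD3 and 0.02 (-0.09 to 0.14) for F11R.

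Between double-KO and CGN-KO cells, which differ in the loss of CGNL1 as well as in clone, 1 gene was called, beside 8.84% of all genes. MAGI1 was lower in double-KO cells by -0.48 ± 0.10 in log2 (SE, limma adjusted p = 0.00545), and this call was kept without any single library and in every alternative. MARVELD3 lay just outside the threshold (-0.22 ± 0.07, limma adjusted p = 0.0540) and was called with library totals only (limma adjusted p = 0.0429), with edgeR on the recovered reads (adjusted p = 0.0444) and without CGNL1-KO replicate 1 (limma adjusted p = 0.0470). Between double-KO and CGNL1-KO cells limma called 0 of the 8 genes, as did edgeR and DESeq2, beside 14.4% of all genes by limma. An unadjusted p below 0.05 was reached there by 2 genes, MARVELD3 (-0.19, 95% interval -0.33 to -0.05, limma adjusted p = 0.0713) and OCLN (-0.12, -0.22 to -0.01, limma adjusted p = 0.150). For MAGI1 this difference was -0.07 (-0.28 to 0.13).

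The design with both single KOs also allowed a test of whether the change in double-KO cells equalled the sum of the 2 single-KO changes in log2. The difference from the sum was called for 1 of the 8 genes, beside 10.3% of all genes. For MARVELD3 the double-KO change lay below the sum by -0.42 ± 0.10 in log2 (SE, limma adjusted p = 0.0103), and this held in all alternatives and without any single library (limma adjusted p at most 0.0338 without a library). The difference was -0.22 ± 0.07 for F11R (limma adjusted p = 0.0723), which was called with DESeq2 (adjusted p = 0.0189) and without WT replicate 1 (limma adjusted p = 0.0267). It was 0.09 (95% interval -0.07 to 0.24) for OCLN and -0.11 (-0.40 to 0.18) for MAGI1, and was not called for either.

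**Figure D3:**
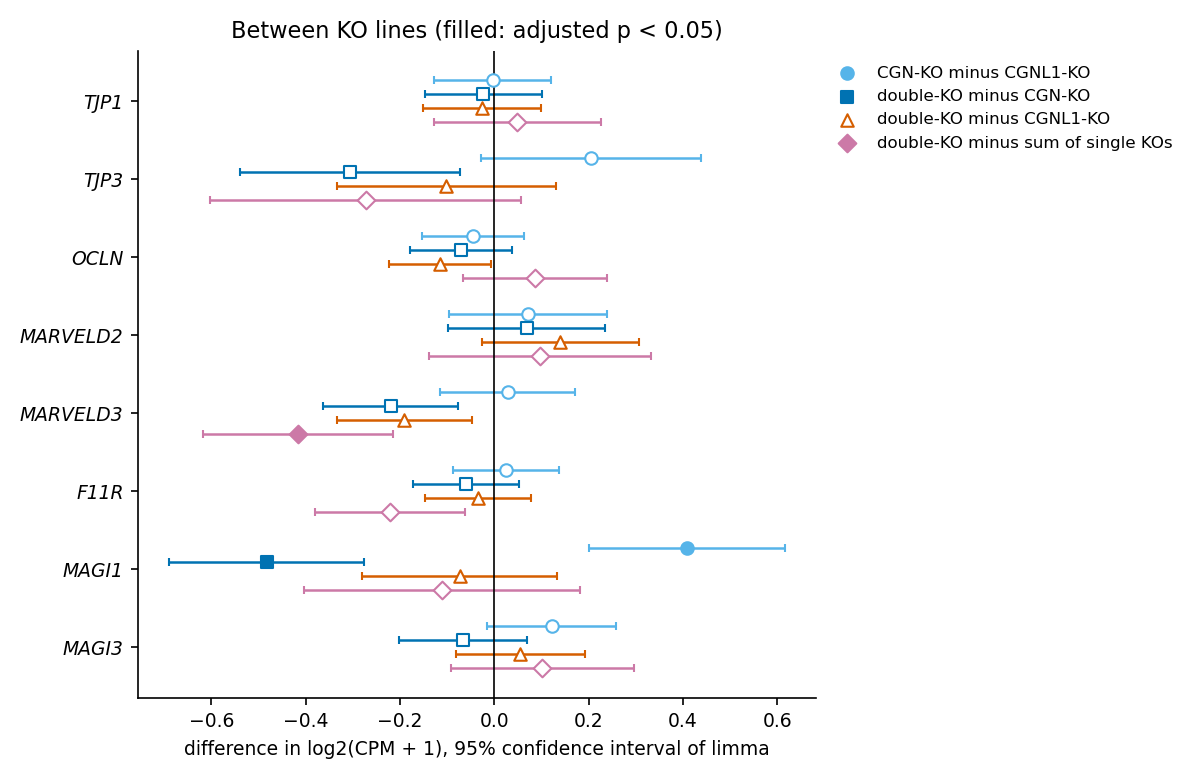
Differences between KO lines in log2(CPM + 1) for the 8 genes, and the double-KO change minus the sum of both single-KO changes, with limma's 95% confidence interval. Filled symbols have an adjusted p below 0.05: MAGI1 in both comparisons of CGN-KO with a line that lacks CGNL1, and MARVELD3 in the test of the sum.

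The other junctional genes were described from a list of 25, of which 20 had values and all 20 were tested. Leaving aside CGN and CGNL1, 18 genes remained. Against WT, 6 of these were called in CGN-KO cells, 3 of them higher. The count was 5 for the CGNL1-KO line, where 4 were higher, and 8 for the double-KO line, with as many higher as lower (4 each). The backgrounds are the 19.0%, 10.3% and 26.3% given above. Their median log2 change was 0.032, 0.015 and 0.025, and these comparisons again share the WT libraries.

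RAB13, MICALL2 and JAM3 were called higher in all 3 KO lines. RAB13, a small GTPase of junctional traffic, was at 42.2 ± 1.42 CPM in WT (SD, n = 3) and 54.9 ± 1.80, 55.4 ± 1.44 and 52.2 ± 2.10 CPM in CGN-KO, CGNL1-KO and double-KO cells, with log2 changes of 0.37, 0.38 and 0.30 (limma adjusted p at most 0.000885). MICALL2, an actin-linked effector of RAB13, rose by 0.59, 0.45 and 0.54 in log2 (limma adjusted p at most 0.0210). JAM3, which encodes JAM-C, was scarcer, at 4.94 ± 0.27 CPM in WT, and rose by 0.60, 0.39 and 0.41 (limma adjusted p at most 0.0130). The double-KO change of RAB13 lay below the sum of the single-KO changes (-0.45, limma adjusted p = 0.00148). That of JAM3 did so as well (-0.58, limma adjusted p = 0.0105). Unlike MARVELD3, both genes were called higher than WT in double-KO cells, and no difference between KO lines was called for either. AMOTL1, an angiomotin-family protein, was the fourth gene higher in CGNL1-KO cells (0.21, limma adjusted p = 0.0356).

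Among the genes called lower, ILDR1, an angulin of tricellular contacts, was at 6.07 ± 0.83 CPM in WT and 4.02 ± 0.96 and 4.27 ± 0.50 CPM in CGNL1-KO and double-KO cells (log2 changes -0.50 and -0.42, limma adjusted p = 0.0423 and 0.0489). TJAP1, a tight junction-associated protein also found at the Golgi, was lower in CGN-KO (-0.27, limma adjusted p = 0.0216) and double-KO cells (-0.27, limma adjusted p = 0.0144). The genes that follow were picked after their values were seen, to complete these counts. AFDN (afadin) was lower in CGN-KO cells (-0.18, limma adjusted p = 0.0309), and YBX3, the ZO-1-associated factor ZONAB, was lower in CGN-KO (-0.17, limma adjusted p = 0.0470) and double-KO cells (-0.19, limma adjusted p = 0.0184). In double-KO cells the polarity scaffold MPP5 (PALS1) was also lower (-0.21, limma adjusted p = 0.0273) and SYMPK (symplekin) higher (0.20, limma adjusted p = 0.00486). Among the genes named here from this list, limma's F test over the 4 genotypes did not call ILDR1 (adjusted p = 0.0554), AMOTL1 (0.0613) or AFDN (0.0876). Fits with a library left out are not given for these other genes.

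**Figure D4:**
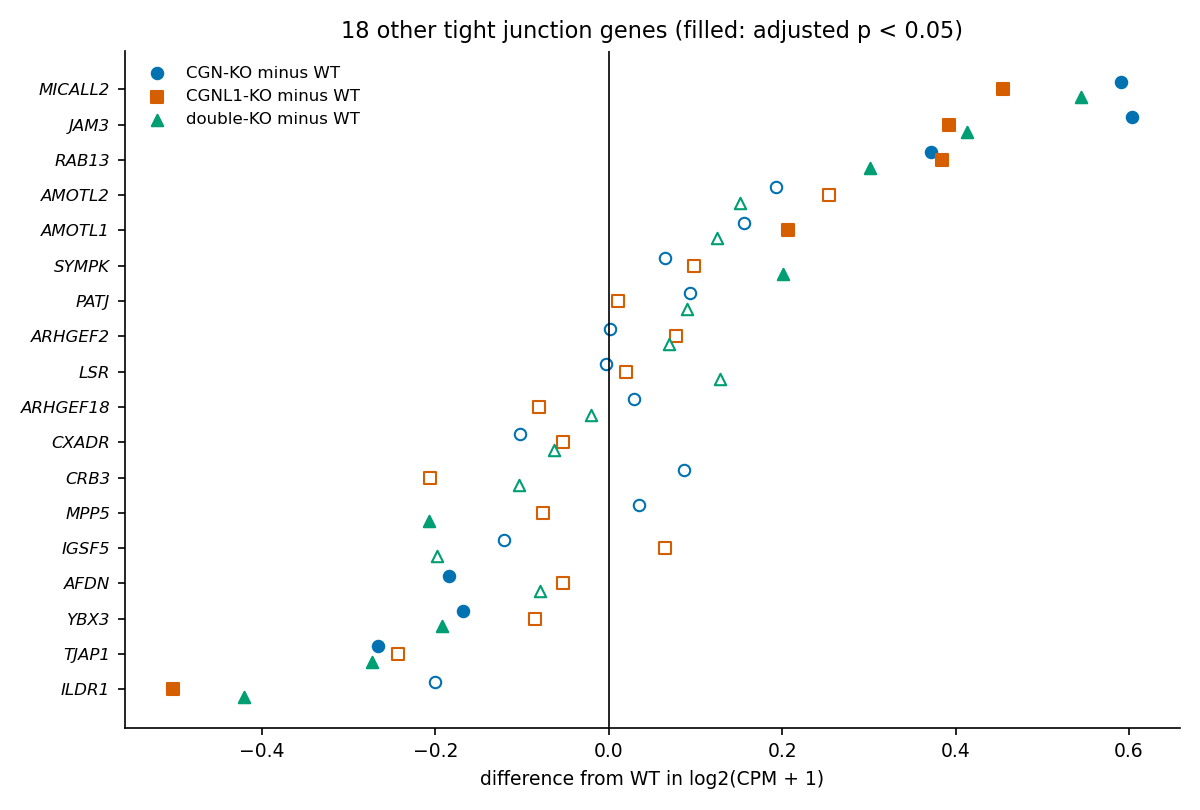
Difference from WT in log2(CPM + 1) for 18 other tight junction genes, ordered by their mean difference, in each KO line. Filled symbols have an adjusted p below 0.05 (limma): MICALL2, JAM3 and RAB13 are filled on the right in all 3 lines, and no gene is filled on the left in all 3.

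The genes whose levels followed those of the called genes most closely over the 12 libraries were searched for among 9353 tested genes with a mean of at least 10 CPM. These correlations describe libraries that share genotypes, depth and scaling, and no test was attached to them. For OCLN they were CMPK2 (Pearson's r = 0.961), DENND2C (0.961) and DDX58 (0.958). CMPK2, an interferon-inducible mitochondrial kinase gene, was at 260 CPM in WT and at 145, 189 and 132 CPM in CGN-KO, CGNL1-KO and double-KO cells, the same order of genotypes as OCLN over a wider range. For MAGI1 they were CA5B (r = 0.932), DUSP16 (0.922) and HELZ (0.894). DUSP16, a MAP kinase phosphatase, was at 29.9 and 30.001 CPM in WT and CGN-KO cells and at 25.3 and 25.8 CPM in CGNL1-KO and double-KO cells. CA5B was at 12.7, 11.4, 9.55 and 8.33 CPM in WT, CGN-KO, CGNL1-KO and double-KO cells, and HELZ at 30.2, 27.5, 24.1 and 22.9 CPM. Unlike MAGI1, CA5B and HELZ thus had a lower mean in CGN-KO than in WT cells. For MARVELD3 they were UBL5 (r = 0.912), ADAMDEC1 (0.911) and CHST15 (0.905). ADAMDEC1, a metalloprotease-like gene, was at 6.37 and 6.33 CPM in WT and double-KO cells and at 17.4 CPM in both single-KO lines. For F11R they were LPCAT3 (r = 0.958), MAP2K4 (0.947) and MTMR4 (0.947).

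The members were also set beside their neighbours in the gene order of the RefSeq assembly UU_Cfam_GSD_1.0, which was used for order only and placed 92.87% of the tested genes. Among the 10 nearest tested genes on each side of OCLN, the median log2 change from WT was -0.10, -0.08 and -0.09 in CGN-KO, CGNL1-KO and double-KO cells, and 14, 14 and 15 of the 20 had a change above that of OCLN. Most genes around OCLN thus lay below 0 in every line as well, with 3, 3 and 6 of the 20 above 0. The median over all placed genes of that chromosome was within 0.02 of 0 in each line. Around MAGI1 the median was -0.08, -0.12 and -0.15, and 6, 16 and 16 of the 20 neighbours had a change above that of MAGI1. LRIG1 and ADAMTS9, picked after their values were seen, lie 2 places before and 1 place after MAGI1, and their values were negative in all 3 lines (-0.53 to -0.77 for LRIG1 and -0.57 to -0.80 for ADAMTS9), unlike MAGI1 in CGN-KO cells. Around MARVELD3 the neighbours had medians of -0.07, -0.03 and -0.08, and 1, 3 and 5 of the 20 exceeded it. Around F11R the medians were 0.12, 0.04 and 0.09, in the direction of F11R itself, and 5, 4 and 5 of the 20 exceeded it. The part of these neighbourhoods in the changes of the members was not tested.

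**Figure D5:**
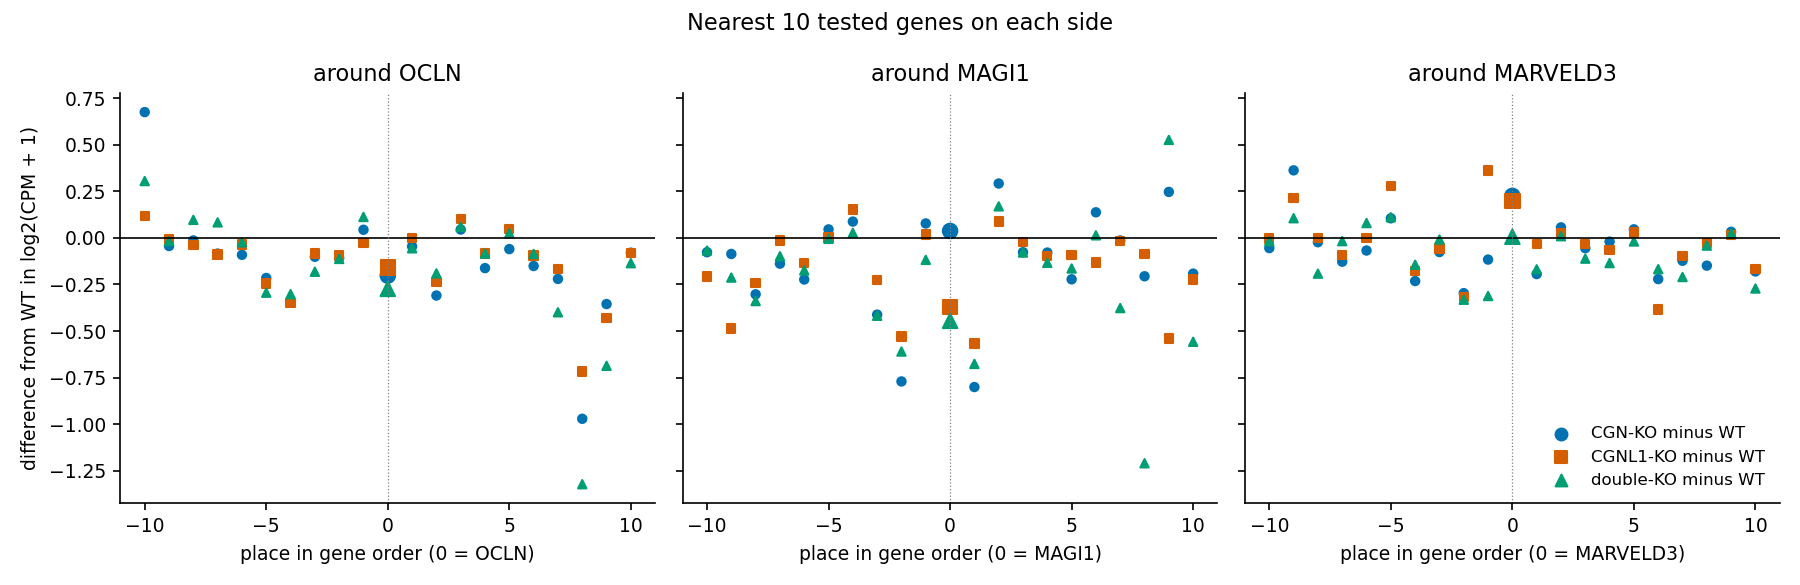
Difference from WT in log2(CPM + 1) of the nearest 10 tested genes on each side of OCLN, MAGI1 and MARVELD3, by place in the gene order (large symbols at 0 are the member). Most neighbours of OCLN lie below 0, the large MAGI1 symbols of CGNL1-KO and double-KO cells lie below 16 of the 20 neighbours, and the large MARVELD3 symbol of CGN-KO cells lies above all but 1.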

How the data were processed

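Per the study's methods and the submitters' processing notes, RNA of MDCKII cells (TruSeq stranded mRNA libraries, single reads) was aligned with STAR 2.7.0f to canFam3 and counted per gene with HTSeq 0.9.1. The annotation release and the strand setting of the counting are not given in the sources used here. The authors deposited 1 signal value in CPM per gene and library, normalized to library size. In every library 100% of the values were whole multiples of 1 step (tolerance 0.01 reads), which gave back the reads, and the denominators equalled the recovered totals times edgeR's TMM factors (largest difference 3.69e-10). All value columns were matched to a genotype, and no column was left over. Among the gene names, 16 read as dates and were kept unchanged.

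Genes above 1 CPM in at least 3 libraries (12650 tested, 1022 not) were compared on log2(CPM + 1) with limma 3.58.1 in R 4.3.3 (trend, two-sided), in 1 fit of 4 genotypes with no block and Benjamini-Hochberg adjustment. Fold changes on this scale understate those of scarce genes. Alternatives were library totals without TMM, edgeR 4.0.16 (quasi-likelihood) and DESeq2 1.42.0 on the recovered reads, a pseudocount of 0.25, no filter, a fit of only the genotypes compared, replicate numbers as blocks, and each library left out in turn. The steps were tested on simulated data for CGN-KO against WT only. Recovery was required there only of changes of at least 2-fold, larger than those of the members. Intervals on counts were not used, and depth was 16837532 to 30086076 reads, of which the top 10 genes held 7.27% to 10.4%.

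Whether replicate numbers pair libraries was checked by correlating, across genes, how far each library departs from its genotype's mean. CGN-KO and CGNL1-KO libraries of equal number gave 0.632, 0.475 and 0.179 for the 3 numbers. These libraries were taken as paired, on the evidence of these correlations alone, although the main fit has no block. For number 3 this evidence was weak, since CGN-KO replicate 3 and CGNL1-KO replicate 2 gave 0.320. No other pair of genotypes was taken as paired, although WT and CGNL1-KO libraries of equal number gave 0.329, 0.371 and 0.011. WT and CGN-KO libraries of equal number likewise gave 0.373, 0.318 and -0.082. The comparisons with WT in the main fit have no block for this either.

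Genes named are the 9 listed, CGN and CGNL1, the 6 other junctional genes with the largest mean change among those called against WT, and for each gene called in the F test the 3 genes with the most similar levels. Another gene of the fixed list of junctional genes is not reported here. Other names are said to be picked after their values were seen. The members and lists were chosen with earlier results of these data known.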

Additional observations from a re-analysis of the deposited data

Results flagged for a closer look

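MARVELD3 was marked because the difference of the double-KO line from WT was not the sum of those of both single-KO lines, each of which is 1 clone. The change in double-KO cells minus the sum of the changes in CGN-KO and CGNL1-KO cells was -0.42 in log2 (limma adjusted p = 0.0103). In CPM, the 3 libraries of each single-KO line lay above all WT libraries, and the double-KO libraries overlapped with those of WT. With groups of 3 libraries, no group was examined for a library far from the others.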

How the results depend on the processing

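Counts of the 8 genes called moved by over 1.5 times in these settings. CGN-KO against WT gave 1 in place of 3 when only these genotypes were fitted, and 1 to 3 with a library left out. CGNL1-KO against WT gave 2 in place of 1 with library totals only and with DESeq2, and 0 to 1 with a library left out. CGN-KO against CGNL1-KO gave 0 in place of 1 when only these genotypes were fitted, and 0 to 1 with a library left out. Double-KO against CGN-KO gave 2 in place of 1 with library totals only, with edgeR and when only these genotypes were fitted, and 1 to 3 with a library left out. The test of the sum gave 2 in place of 1 with DESeq2, and 1 to 2 with a library left out. The F test gave 2 to 4 with a library left out. With only the genotypes compared in the fit, the share of all genes called fell from 10.3% to 6.22% in CGNL1-KO against WT and from 5.19% to 2.58% in CGN-KO against CGNL1-KO, and rose from 26.3% to 32.3% in double-KO against WT and from 8.84% to 11.9% in double-KO against CGN-KO. The cause of these moves was not tested.

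With the replicate number as a block, over the 11 numbered libraries, CGNL1-KO against WT gave 2 genes in place of 1 (F11R added). The block raised the share of all genes called in CGN-KO against CGNL1-KO from 5.19% to 9.12%. Against WT this share rose from 19.0% to 27.1% in CGN-KO, 10.3% to 15% in CGNL1-KO and 26.3% to 28.2% in double-KO cells. In double-KO against CGN-KO it fell from 8.84% to 7.3%. No other count of the 8 genes moved by over 1.5 times. In this fit, 3 uncalled values changed sign: MARVELD3 was -0.0049 in double-KO against WT, and TJP3 and MAGI1 were 0.031 and 0.037 in double-KO against CGNL1-KO.

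No called change turned its direction in any alternative. Other sign changes among uncalled values near 0 were MARVELD3 in double-KO against WT with DESeq2 (-0.00064), and TJP1 with library totals only in CGN-KO (0.041) and double-KO (0.0076) against CGNL1-KO. With a library left out, 16 values changed sign, and their log2 ranges follow. TJP1 ranged from -0.050 to 0.040 in CGN-KO against CGNL1-KO, -0.066 to 0.023 in double-KO against CGN-KO and -0.054 to 0.00011 in double-KO against CGNL1-KO. TJP3 ranged from -0.14 to 0.070 in CGNL1-KO against WT and -0.20 to 0.0013 in double-KO against CGNL1-KO. MARVELD2 ranged from -0.071 to 0.0036 in CGNL1-KO against WT and -0.0037 to 0.11 in double-KO against CGN-KO. MARVELD3 ranged from -0.018 to 0.032 in double-KO against WT and -0.014 to 0.053 in CGN-KO against CGNL1-KO. In CGN-KO against WT, MAGI1 ranged from -0.046 to 0.11 and MAGI3 from -0.11 to 0.0033.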
